A study of Mus musculus with 42 samples.

Results

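The insulin-like growth factor (IGF) system was followed through 10 genes in RNA-seq libraries of Pax7-expressing myogenic precursors, the same cells after loss of Pax7, and muscle satellite cells. The genes were taken by symbol, 10 of the 24466 gene symbols in the count tables: the ligands Igf1 and Igf2, the receptors Igf1r and Igf2r, and the binding proteins Igfbp2, Igfbp3, Igfbp4, Igfbp5, Igfbp6 and Igfbp7. None was chosen for its measured values by the rule itself, and all 10 passed the filter on low counts.

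IGF1 and IGF2 are secreted peptides that act through the receptor tyrosine kinase IGF1R, which feeds the PI3K-Akt and MAP kinase pathways, and in skeletal muscle they are known to promote both the proliferation and the differentiation of myoblasts as well as fibre growth. IGF2R, which is also the cation-independent mannose-6-phosphate receptor, carries IGF2 to lysosomes and clears it. Most extracellular IGF is held by binding proteins, which lengthen its half-life and can block or aid its access to the receptor, and Igf2 and Igf2r are imprinted in the mouse, which counts per gene cannot resolve by allele.

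The iPax7 line is a mouse embryonic stem cell line in which doxycycline (Dox) turns on a Pax7 transgene, and PDGFRα-positive, Flk-1-negative precursors were sorted from its embryoid bodies. The +Dox libraries (n = 3) came from cells kept in 0.75 µg/ml Dox and the -Dox libraries (n = 2) from cells that had been grown with Dox and then without it for 3 days, and all iPax7 cells were cultured in serum with added FGF. The satellite cells (n = 3), labelled in vivo, are the muscle stem cells; the study's methods describe sorting them fresh from Pax7-ZsGreen reporter mice, and their age, sex and number were not given in the sources used here. Libraries of a group are called replicates in the study, but the sources used here do not say whether they came from separate cultures or animals, so the p-values measure only the spread between these libraries, which may be technical.

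Libraries held from 39010958 to 54674619 counts on genes. Pax7 itself had 12759, 14130 and 11610 normalized counts (counts scaled to a common library size) in +Dox, 221 and 270 in -Dox, and 8504, 3926 and 5456 in satellite cells, so every library followed its label. Genes of differentiated muscle, 7 in the files, summed to between 8331 and 9801 normalized counts in +Dox and to between 1862400 and 1925900 in -Dox. The satellite cell libraries stood apart in other respects. The summed level of 6 endothelial genes was 13167 to 21659 there and 116 to 316 in +Dox, where Cdh5, Kdr and Cldn5 were at 0. The summed level of 6 immune genes was 2673 to 10300 against 158 to 464, with Ptprc, Adgre1, C1qa and Csf1r at 0 in +Dox. That of 6 fibroblast genes was 59138 to 109620 against 5248 to 12596, with Lum at 0, and that of 5 pericyte and smooth muscle genes was 22154 to 34336 against 407 to 610, with Kcnj8 and Myh11 at 0. In -Dox the ranges for these 4 lists were 69.8 to 192, 205 to 307, 4141 to 5941 and 716 to 777 in the same order. The tendon list of 3 genes summed to 1119 to 1718 in satellite cells, to 93.1 to 174 in +Dox, with Tnmd at 0, and to 186 to 196 in -Dox. Scx, of the tendon list, went the other way and averaged 17.6 in satellite cells, 99.6 in +Dox and 169 in -Dox. The muscle stem cell list of 8 genes also summed highest in satellite cells, at 702310 to 1049000 against 187090 to 265700 in +Dox and 51816 to 55135 in -Dox. Most of that sum was Sdc4, which averaged 654640 in satellite cells and 45891 in +Dox. Pax7 (5962 against 12833) and Myf5 (122740 against 143920) had lower means in satellite cells than in +Dox. The other genes of that list had higher ones. Ly6a, of the fibroblast list, did not follow the others and averaged 2623 in satellite cells and 5063 in +Dox. Between 23.6% and 30.7% of the reads of satellite cell libraries were not placed uniquely, and between 7.11% and 7.60% of those of iPax7 libraries. These values moved with every difference between satellite cells and iPax7 cells given here, and their part in those differences was not tested. In bulk RNA, fewer cells of a type and less RNA per cell cannot be told apart.

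The deposited list of Pax7-bound regions in +Dox cells placed Pax7 within 100 kb of 5 of the 10 genes. All 5 were binding proteins, Igfbp4 not among them, and 21.3% of 18991 genes had such a region. The sequences at the centres of 3 such regions are shown. Their accessibility is described further on. Upstream of Igfbp5 and in the Igfbp3 intron it was well below the +Dox value 3 days after Dox withdrawal, while upstream of Igfbp3 it was nearly as high. Each run is the central 300 bases on the plus strand of NCBIM37 (mm9), and none overlaps an annotated exon. Capitals mark TAAT, the core of homeodomain sites, and GTCAC, a core of paired-domain sites, on either strand, so that a match on the minus strand is read in reverse complement. CAGCTG, an E-box, was searched as well, and no match overlapped another. The region upstream of Igfbp5 is at chr1:72925430-72925729, that in an intron of Igfbp3 at chr11:7112092-7112391, and that upstream of Igfbp3 at chr11:7137815-7138114.
Igfbp5 upstream: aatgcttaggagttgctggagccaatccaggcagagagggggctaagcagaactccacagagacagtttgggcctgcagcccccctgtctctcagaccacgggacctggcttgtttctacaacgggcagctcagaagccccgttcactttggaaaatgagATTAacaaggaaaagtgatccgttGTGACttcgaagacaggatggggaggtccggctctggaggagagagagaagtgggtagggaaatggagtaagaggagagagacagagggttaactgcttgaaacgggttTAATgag
Igfbp3 intron: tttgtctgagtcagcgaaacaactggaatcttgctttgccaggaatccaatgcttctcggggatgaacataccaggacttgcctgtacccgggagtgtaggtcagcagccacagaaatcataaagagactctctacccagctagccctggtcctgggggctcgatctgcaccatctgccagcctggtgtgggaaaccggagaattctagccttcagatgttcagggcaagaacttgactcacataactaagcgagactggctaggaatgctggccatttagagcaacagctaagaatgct
Igfbp3 upstream: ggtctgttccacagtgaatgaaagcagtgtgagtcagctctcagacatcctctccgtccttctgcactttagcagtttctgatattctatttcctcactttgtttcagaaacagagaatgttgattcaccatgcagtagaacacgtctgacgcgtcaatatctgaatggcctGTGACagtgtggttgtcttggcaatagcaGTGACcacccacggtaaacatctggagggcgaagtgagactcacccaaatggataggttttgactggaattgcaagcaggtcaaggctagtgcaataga
The Igfbp5 run held 2 matches to TAAT and 1 to GTCAC, the upstream Igfbp3 run held 2 to GTCAC and 0 to TAAT, and the intronic Igfbp3 run held none of the 3 motifs. Over the central 300 bases of all 2455 Pax7 regions, 82.8% held TAAT, 49.2% held GTCAC and 25.6% held CAGCTG, and a match of this length is a description of the letters only.

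After 3 days without Dox, the 2 ligands and Igfbp4 rose. Each difference was assessed by edgeR's quasi-likelihood test over all 8 libraries, with Benjamini-Hochberg adjustment over 14836 genes, and a gene was called changed with an adjusted p under 0.05 and a difference of at least 2-fold. Of the 10 genes, 3 were called, all 3 higher, where 7.64% of all genes tested were called, 4.63% higher and 3.01% lower. The libraries of the 2 groups did not overlap for 9 of the 10, against 45.3% of all genes. The median log2 fold change was 0.77 over the 10 genes and -0.0049 over all genes tested.

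Against +Dox cells, satellite cells had more Igf1, Igf1r, Igfbp4, Igfbp5 and Igfbp7. These were the 5 of the 10 genes called, all 5 higher, where 42.1% of all genes were called (23.9% higher and 18.2% lower), so the count by itself was close to that of all genes. The groups did not overlap for 5 of the 10, against 56.5% of all genes, and the median log2 fold change was 1.18 against 0.17. Against -Dox cells, satellite cells had more Igf1, Igf1r, Igfbp5 and Igfbp7 and less Igf2 and Igfbp4. In this comparison 6 of the 10 were called, where 37.6% of all genes were (20.4% higher and 17.2% lower), and 8 of the 10 did not overlap, against 64.3% of all genes. The median log2 fold change was 0.64 over the 10 genes and 0.23 over all. The comparisons share libraries pairwise, so their results are not independent of each other.

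**Figure D1:**
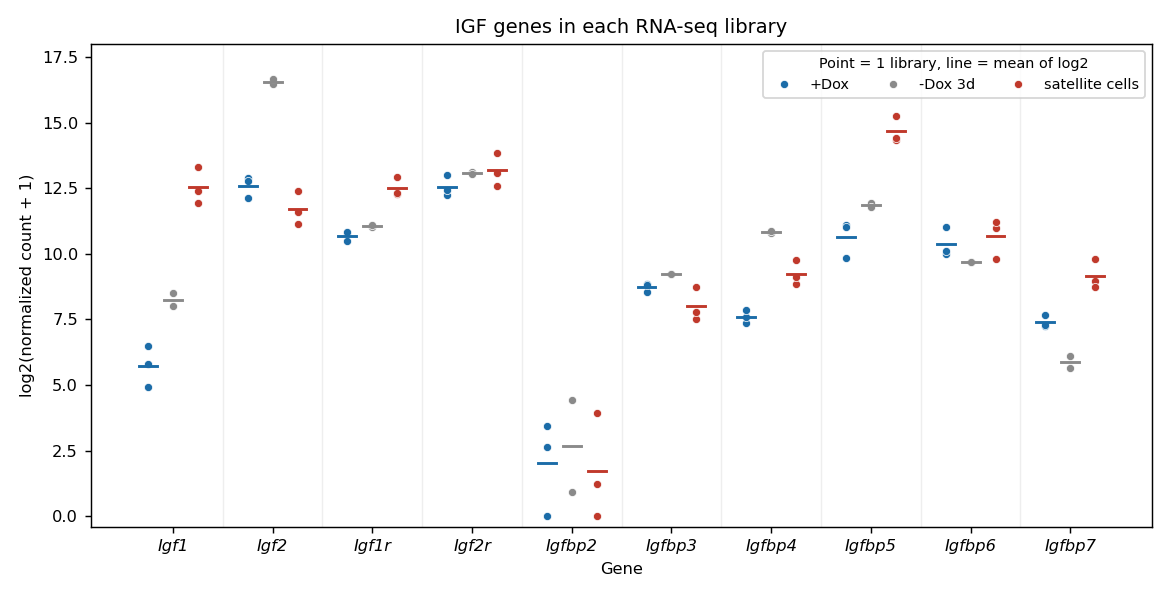
Log2 of the normalized count plus 1 (y axis) of each of the 10 genes (x axis) in each RNA-seq library, with 1 point a library and a line at the mean of the log2 values of each group. Igf2 was highest in the 2 -Dox libraries, Igf1 and Igfbp5 were highest in the 3 satellite cell libraries, and Igfbp2 had the lowest levels.

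Igf2 (chr7:149836673-149852721, minus strand) encodes the ligand that myoblasts are known to make themselves as they differentiate. It had 7615, 6976 and 4534 normalized counts in the +Dox libraries, 89897 and 102790 in -Dox, and 5420, 2280 and 3057 in satellite cells. The -Dox libraries stood far above all others, while +Dox and satellite cells overlapped. Withdrawal of Dox raised Igf2 by a log2 fold change of 3.92 (SE 0.40, 15.1-fold, edgeR adjusted p = 0.000412). Satellite cells were below -Dox by a log2 fold change of -4.75 (SE 0.41, edgeR adjusted p = 6.92e-05). Against +Dox the log2 fold change of satellite cells was -0.83 (SE 0.34, edgeR adjusted p = 0.0729), which did not pass. It passed when satellite cell replicate 1 was left out (-1.25, edgeR adjusted p = 0.00844) and when +Dox replicate 3 was left out (-1.02, edgeR adjusted p = 0.0476). The antisense gene Igf2os overlaps Igf2, and whether reads were counted by strand was not given in the sources used here.

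Igf1 (chr10:87321010-87399792, plus strand) encodes the ligand that also acts in the circulation under growth hormone. It had 89.4, 54.8 and 29.1 normalized counts in +Dox, 255 and 366 in -Dox, and 3977, 10198 and 5361 in satellite cells. The 3 groups did not overlap and rose in that order. After Dox withdrawal the log2 fold change was 2.42 (SE 0.52, 5.34-fold, edgeR adjusted p = 0.0222). This call was lost when +Dox replicate 2, +Dox replicate 3, -Dox replicate 1 or -Dox replicate 2 was left out, with edgeR adjusted p-values of 0.0762, 0.0515, 0.0589 and 0.132 in that order and log2 fold changes from 2.10 to 2.65. Under a replicate block its log2 fold change was 2.19 (edgeR adjusted p = 0.0543). Satellite cells were 112-fold above +Dox (log2 fold change 6.81, SE 0.59, edgeR adjusted p = 4.16e-05) and 21.0-fold above -Dox (4.39, SE 0.62, edgeR adjusted p = 0.000666). The balance of the ligands therefore differed between groups. Per kilobase of exon, the ratio of the Igf2 level to the Igf1 level was 154, 230 and 281 in +Dox, 638 and 508 in -Dox, and 2.46, 0.404 and 1.03 in satellite cells.

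Igf1r (chr7:75097713-75371484, plus strand), the receptor that signals for both ligands, was called higher in satellite cells than in either iPax7 group. It had 1758, 1811 and 1425 normalized counts in +Dox, 2091 and 2217 in -Dox, and 4954, 5170 and 7781 in satellite cells. The -Dox libraries lay just above +Dox and the satellite cell libraries above both. The log2 fold change after Dox withdrawal was 0.37 (SE 0.29, edgeR adjusted p = 0.537). Satellite cells were above +Dox by 1.84 (SE 0.27, edgeR adjusted p = 0.000669) and above -Dox by 1.47 (SE 0.31, edgeR adjusted p = 0.0051) on the log2 scale. The difference from -Dox did not pass with only 1 -Dox library in the fit (edgeR adjusted p = 0.0598 without -Dox replicate 1 and 0.0533 without -Dox replicate 2).

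Igf2r (chr17:12875272-12962530, minus strand), the receptor that clears IGF2, was not called in any comparison. It had 4849, 5529 and 8339 normalized counts in +Dox, 8812 and 8454 in -Dox, and 14905, 6131 and 8782 in satellite cells. Both -Dox libraries were above all +Dox libraries by a small margin, and the satellite cell libraries overlapped both other groups. The log2 fold changes were 0.47 (SE 0.38, edgeR adjusted p = 0.56) after Dox withdrawal, 0.67 (SE 0.35, edgeR adjusted p = 0.143) for satellite cells against +Dox and 0.20 (SE 0.39, edgeR adjusted p = 0.708) against -Dox. The last turned to -0.21 without satellite cell replicate 1. With Igf2 higher and Igf2r not called, the ratio of their levels per kilobase was 2.70, 2.17 and 0.934 in +Dox, 17.5 and 20.9 in -Dox, and 0.625, 0.639 and 0.598 in satellite cells. The antisense gene Airn overlaps Igf2r.

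**Figure D2:**
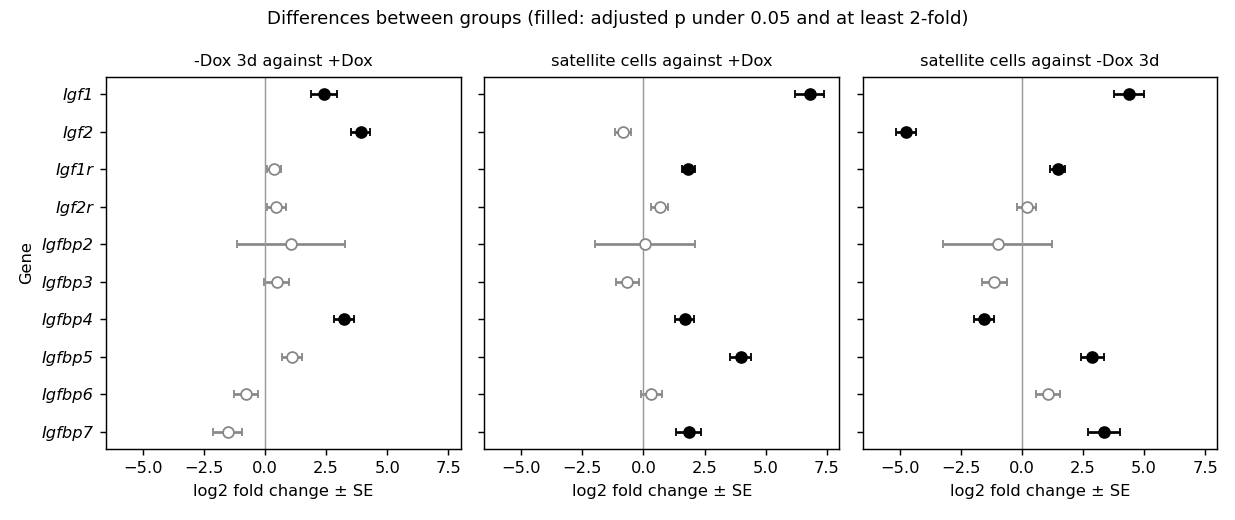
Log2 fold change (x axis, points) with its standard error (bars) for each of the 10 genes (y axis) in the 3 comparisons, from edgeR's quasi-likelihood fit, with called genes as filled points. Igf2 had 3.92 after Dox withdrawal and -4.75 in satellite cells against -Dox, while Igf1 and Igfbp5 were higher in satellite cells against both iPax7 groups.

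Among the binding proteins, Igfbp4 (chr11:98902558-98913969, plus strand), which is known as an inhibitor of IGF action that the protease pappalysin cleaves, was the one called after Dox withdrawal. It had 162, 192 and 230 normalized counts in +Dox, 1779 and 1874 in -Dox, and 465, 861 and 553 in satellite cells. The 3 groups did not overlap, with satellite cells in between. The log2 fold change after Dox withdrawal was 3.23 (SE 0.42, 9.37-fold, edgeR adjusted p = 0.00178). Satellite cells were above +Dox by 1.68 (SE 0.37, edgeR adjusted p = 0.00582) and differed from -Dox by -1.54 (SE 0.40, edgeR adjusted p = 0.0138) on the log2 scale. The difference from -Dox did not pass without -Dox replicate 1 (edgeR adjusted p = 0.0812) or without -Dox replicate 2 (edgeR adjusted p = 0.0862).

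Igfbp5 (chr1:72904506-72921458, minus strand), a binding protein that attaches to extracellular matrix and is known to be expressed in developing muscle, had the highest level per kilobase of the 10 genes in satellite cells. It had 2199, 2058 and 928 normalized counts in +Dox, 3889 and 3498 in -Dox, and 39186, 20684 and 21654 in satellite cells. The groups did not overlap. The log2 fold change after Dox withdrawal was 1.10 (SE 0.41, edgeR adjusted p = 0.15), which did not pass. Satellite cells were above +Dox by 3.97 (SE 0.42, 15.7-fold, edgeR adjusted p = 0.000108) and above -Dox by 2.88 (SE 0.47, edgeR adjusted p = 0.00132) on the log2 scale.

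Igfbp7 (chr5:77778265-77837070, minus strand), a distant relative that binds IGFs weakly and is abundant in blood vessels, had 149, 201 and 155 normalized counts in +Dox, 49.6 and 68.3 in -Dox, and 891, 501 and 425 in satellite cells. The -Dox libraries were the lowest and the satellite cell libraries the highest, with no overlap. The log2 fold change after Dox withdrawal was -1.51 (SE 0.59), with an edgeR adjusted p of 0.174 and a DESeq2 Wald adjusted p of 0.0424, so that the call depended on the test. Satellite cells were above +Dox by 1.85 (SE 0.52, edgeR adjusted p = 0.017) and above -Dox by 3.36 (SE 0.65, edgeR adjusted p = 0.00335) on the log2 scale. Without +Dox replicate 1 the difference from +Dox did not pass (edgeR adjusted p = 0.0649). The summed endothelial genes given above were also higher in satellite cells than in either iPax7 group. So were the immune, fibroblast, pericyte and tendon sums. Among the satellite cell libraries, however, Igfbp7 was highest in replicate 1, where the endothelial sum was lowest. The part of any of these cell types in the level of Igfbp7 was not tested.

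Igfbp3 (chr11:7106089-7113926, minus strand), the main carrier of IGFs in serum, had 467, 373 and 452 normalized counts in +Dox, 601 and 604 in -Dox, and 180, 425 and 218 in satellite cells. The -Dox libraries were the highest, and the satellite cell libraries overlapped +Dox through replicate 2. None of its log2 fold changes was called, at 0.48 (SE 0.51) after Dox withdrawal, -0.65 (SE 0.46) for satellite cells against +Dox and -1.13 (SE 0.51, edgeR adjusted p = 0.103) against -Dox. The last passed without satellite cell replicate 2, at -1.59 (edgeR adjusted p = 0.0321).

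Igfbp6 (chr15:101974793-101979942, plus strand), which prefers IGF2 over IGF1, had 1011, 1112 and 2109 normalized counts in +Dox, 835 and 832 in -Dox, and 2018, 891 and 2383 in satellite cells. The -Dox libraries were the lowest, and all 3 +Dox libraries lay within the range of the satellite cell libraries. Its log2 fold changes were -0.76 (SE 0.49) after Dox withdrawal, 0.32 (SE 0.43) for satellite cells against +Dox and 1.08 (SE 0.50, edgeR adjusted p = 0.11) against -Dox, none of them called. Without satellite cell replicate 2 the last was 1.40 (edgeR adjusted p = 0.0344).

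Igfbp2 (chr1:72871077-72899048, plus strand), a binding protein of fetal tissues, was barely detected. It had 13, 7 and 0 raw counts in +Dox, 1 and 22 in -Dox, and 11, 0 and 1 in satellite cells. The libraries of every group overlapped those of the others, and no difference was detectable at this depth. A count of 0 allows up to 3 counts, by counting error alone.

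Levels of different genes were compared as CPM (counts scaled to a common library total) per kilobase of annotated exon. Lengths were the union of exons in GENCODE M1, which may not match the annotation used for counting, and orders, shares and ratios between genes rest on them. The union was 9921 bases for Igf1, against 7121 for its longest transcript, while the 2 lengths were equal for Igfbp5, Igfbp6 and Igfbp7. In +Dox the highest mean level was that of Igfbp6, at 26.8 CPM per kilobase, followed by Igf2 at 24.5, Igf2r at 14.0, Igf1r at 7.86 and Igfbp5 at 6.09. The libraries of Igfbp6, Igf2 and Igf2r overlapped in that order, each with the next, and those of Igf1r with Igfbp5. Igfbp7 (2.93), Igfbp3 (2.91) and Igfbp4 (1.74) followed, and Igf1 (0.123) and Igfbp2 (0.057) had the lowest levels. In -Dox the mean level of Igf2 was 371 CPM per kilobase, and the next gene, Igf2r, was at 19.3, ahead of Igfbp4 at 16.4, Igfbp6 at 15.9, Igfbp5 at 13.0 and Igf1r at 10.2. No neighbours overlapped in that order, with 2 libraries. In satellite cells Igfbp5 led at 95.7 CPM per kilobase, with its lowest library (72.8) above the highest of Igfbp6 (45.3). Igfbp6 (33.6), Igf1r (28.2), Igf2r (22.3), Igf1 (13.9), Igf2 (13.8), Igfbp7 (10.6) and Igfbp4 (5.60) followed, and each of these overlapped the next.

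The makeup of the binding protein transcripts differed from group to group. Of the summed level of the 6 Igfbp genes per kilobase, Igfbp6 took 64.3% ± 12.2 (SD, n = 3) in +Dox. Replicate 3 stood apart there, with 78.4% against 56.1% and 58.4% in replicates 1 and 2. In -Dox the sum was spread over Igfbp4 (32.4% ± 1.20, SD, n = 2), Igfbp6 (31.4% ± 0.082) and Igfbp5 (25.8% ± 1.92). In satellite cells Igfbp5 took 64.3% ± 7.11 (SD, n = 3) and Igfbp6 22.8% ± 9.43. The share of Igfbp4 was 4.34% ± 0.37 in +Dox and 4.27% ± 2.54 in satellite cells. Set against the summed level of the 2 ligands per kilobase, the summed binding proteins were 1.16, 1.34 and 2.92 times as high in +Dox, 0.146 and 0.127 times in -Dox, and 6.73, 3.58 and 5.84 times in satellite cells. The -Dox libraries were thus the ones in which ligand transcripts exceeded those of the binding proteins.

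**Figure D3:**
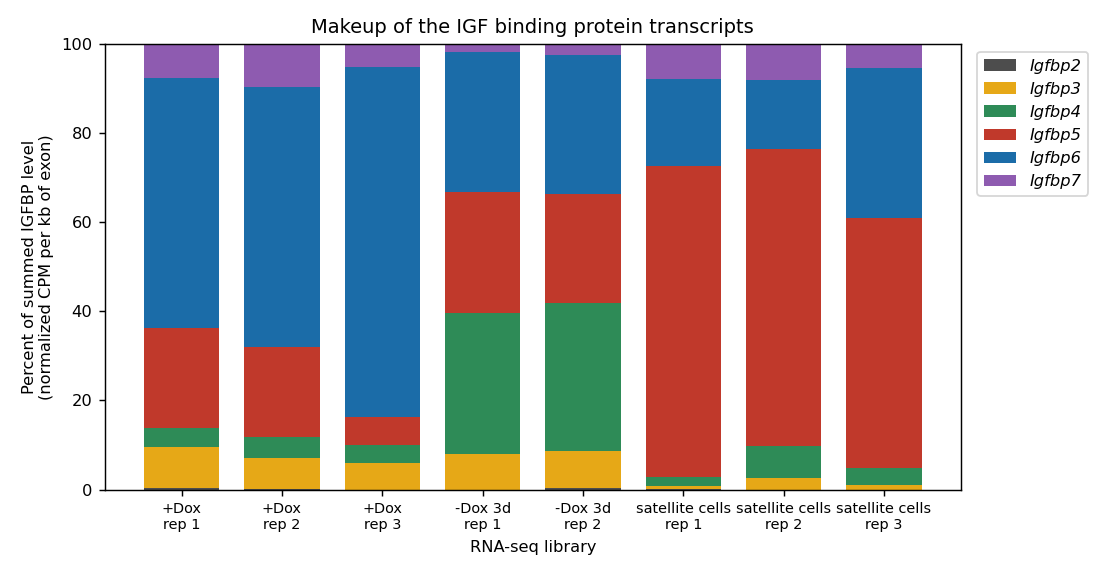
Share of each Igfbp gene (stacked bars, y axis in percent) in the summed Igfbp level per kilobase of exon, for each of the 8 RNA-seq libraries (x axis). Igfbp6 took between 56.1% and 78.4% in the +Dox libraries, Igfbp4 took between 31.6% and 33.3% in -Dox, and Igfbp5 took between 56.3% and 69.9% in satellite cells.

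The genes whose patterns were most like those of the 10 were found by Pearson's r of log2(CPM + 1) over the 8 libraries, among about 12418 other genes, as a description. With 3 groups of libraries, a high r reflects the group means in the main. The closest to Igf2 were Srl (r = 0.995) and Tnni1 (0.991), and the closest to Igfbp4 were Xirp1 (0.995) and Acsl3 (0.990). Those closest to Igf1 were Spsb1 and Pvr (both 0.995), to Igf1r Rnd3 (0.994) and Tnfaip3 (0.992), and to Igfbp5 Arid5a (0.996) and Irf1 (0.994). Igfbp7 was closest to Gsn (0.995) and B3galt1 (0.990), Igf2r to Tmem59 (0.979) and Gm20594 (0.969), Igfbp6 to Adpgk (0.973) and Acsbg1 (0.948), and Igfbp3 to Trnt1 (0.958) and Arl5a (0.953). Igfbp2 had the weakest match, Tfcp2 (0.919) and Zfp169 (0.911), from few counts.

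Other genes of the IGF pathway were taken from a list of 57, of which 50 were tested. After Dox withdrawal 4 of the 50 were higher and 0 lower, with a median log2 fold change of -0.07. The share called, 8%, was close to the 7.64% of all genes. The largest of the 4 was H19, the noncoding RNA that neighbours Igf2 and shares its enhancers, with 385, 363 and 207 normalized counts in +Dox and 19050 and 23093 in -Dox (log2 fold change 6.05, SE 0.39, edgeR adjusted p = 4.21e-05). In satellite cells H19 had 595, 377 and 371 normalized counts, so that H19, like Igf2, was highest in the -Dox libraries. Htra3, a secreted serine protease, had 39.8, 130 and 117 in +Dox and 3372 and 3579 in -Dox (5.18, SE 0.55, edgeR adjusted p = 0.000518).

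Of the 29 signalling genes downstream of IGF1R, 2 rose after Dox withdrawal, or 6.90%, which is no more than the share of all genes. Akt2, a kinase of the PI3K pathway, had 5875, 5843 and 3198 normalized counts in +Dox and 18634 and 19945 in -Dox (log2 fold change 1.96, SE 0.40, edgeR adjusted p = 0.0179). Grb2, an adaptor to the Ras pathway, had 975, 1117 and 1143 in +Dox and 2735 and 2887 in -Dox (1.38, SE 0.34, edgeR adjusted p = 0.0384). Of the 11 tested genes of a list of proteases, their inhibitors and other proteins that bind IGF binding proteins, Htra3 was the 1 called (9.09%, against 7.64% of all genes). The pappalysins, proteases of IGF binding proteins, did not pass. Pappa had 0, 1.48 and 0 normalized counts in +Dox and 46.0 and 85.8 in -Dox (edgeR adjusted p = 0.0978), and Pappa2 had 33.8, 74.8 and 9.11 in +Dox and 377 and 600.01 in -Dox (log2 fold change 3.63, SE 1.15, edgeR adjusted p = 0.0951).

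In satellite cells, 13 of the 50 pathway genes were higher and 5 lower than in +Dox, and 15 were higher and 8 lower than in -Dox, with median log2 fold changes of 0.55 and 0.50. The shares called, 36% and 46%, were read against 42.1% and 37.6% of all genes, and were not far from them. All 5 genes of the growth hormone axis, which drives Igf1 in many tissues, were called higher than in -Dox, against 20.4% of all genes. Against +Dox, 3 of them (Ghr, Stat5a and Stat5b) were called higher, where 23.9% of all genes were. After Dox withdrawal, where Igf1 was called higher, 0 of the 5 were called and their median log2 fold change was -0.65. Irs2, an adaptor of the receptor, was higher by a log2 fold change of 5.63 (SE 1.15, edgeR adjusted p = 0.00377) than in +Dox, while its relative Irs1 differed by -1.71 (SE 0.41, edgeR adjusted p = 0.00794). The mRNA-binding proteins Igf2bp1 and Igf2bp3, which bind Igf2 mRNA and are largely embryonic, were far below the iPax7 level. Igf2bp1 averaged 3.53 normalized counts in satellite cells, 6119 in +Dox and 7618 in -Dox (log2 fold changes -10.71 and -11.03, edgeR adjusted p = 3.15e-06 and 5.99e-06). Igf2bp3 averaged 69.7, 3279 and 2979 normalized counts in the same groups (log2 fold changes -5.55 and -5.42).

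Chromatin at the 10 genes was read from deposited peak lists, each merged over the replicates of a condition, so these values carry no replicate error. Start sites were taken from GENCODE M1 on NCBIM37, with 1 kb on either side of every annotated start of a gene. The joined windows ran from 2001 bases at Igfbp6 to 8406 at Igf2. The shares of all genes given beside them were not matched for window length or number of starts. A peak of H3K27me3, the mark laid down by Polycomb, lay at 7 of the 10 in +Dox, all but Igf1r, Igf2r and Igfbp6, against 23.5% of 18991 genes. In -Dox it lay at 4 of the 10, Igf1, Igf2, Igfbp2 and Igfbp5, against 21.5% of genes. The 3 that no longer had it, Igfbp3, Igfbp4 and Igfbp7, were 42.9% of the 7, where 19% of the 4465 genes with a +Dox peak had none in -Dox. The list of H3K27me3 peaks was also shorter in -Dox (139870 against 178271).

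The extent of the mark was lower in -Dox at all 7 genes that carried it in +Dox, as it was at 71.5% of the 4465 genes with a +Dox peak. Peaks of H3K27me3 covered 97.5% of the window at Igf1 in +Dox and 23.1% in -Dox, 93.6% and 52.5% at Igfbp5, 45.8% and 24.5% at Igf2, and 47.0% and 37.7% at Igfbp2. At Igfbp4 coverage went from 21.8% to 0%, at Igfbp7 from 23.2% to 0% and at Igfbp3 from 19.4% to 0%. It was lower at Igf1, Igf2 and Igfbp4, whose RNA rose, and also at Igfbp7, whose RNA had a negative log2 fold change. H3K27Ac, a mark of active promoters and enhancers, was found at the same 5 genes in both conditions, Igf2, Igf1r, Igf2r, Igfbp4 and Igfbp6, against 51.8% and 48.7% of all genes. Its coverage was 25.2% and 22.9% of the window at Igf2, and 28.3% and 31.8% at Igfbp4. Peaks of H3K4me3 and H3K4me1 were present at all 10 genes in both conditions, against 64.7% to 70.4% of all genes.

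**Figure D4:**
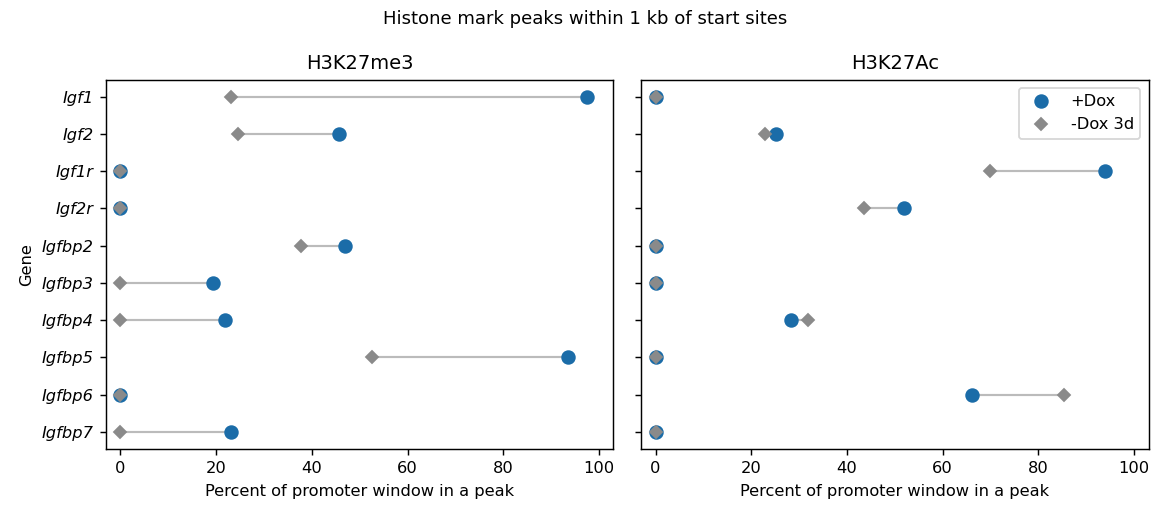
Percent of the promoter window, 1 kb on either side of all annotated starts, that lay in a peak of H3K27me3 (left) or H3K27Ac (right) for each of the 10 genes (y axis) in +Dox (circles) and -Dox 3d (diamonds), from 1 merged peak list each. H3K27me3 coverage was lower in -Dox at all 7 genes that had it in +Dox (71.5% of all genes that had it), for example 97.5% and 23.1% at Igf1.

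Transposase-accessible chromatin (ATAC-seq) was found within 1 kb of a start at 9 of the 10 genes in +Dox, 8 at 12 h without Dox, 10 at 24 h, 9 at 3 days and 8 in satellite cells, against 62.9% to 70.3% of all genes. At Igfbp5 no promoter peak was listed in +Dox or at 3 days, and the highest peak had a fold enrichment over background of 2.57 at 12 h, 3.45 at 24 h and 5.47 in satellite cells. At Igf2 the highest promoter peak had a fold enrichment of 9.64 in +Dox, 2.80 at 12 h, 6.17 at 24 h and 8.88 at 3 days. Its window holds 9 annotated starts, and 4, 2, 2 and 1 peaks were listed in the same order. They covered 16.2%, 6.76%, 9.16% and 7.13% of that window. At Igfbp6 the highest fold enrichment was 7.32 in +Dox and 20.9 at 3 days, with no peak in satellite cells. At Igfbp7 it was 10.9 and 19.2, with 14.1 in satellite cells. At Igfbp4 it was 3.10 and 2.68, with 6.64 in satellite cells. Fold enrichment was computed separately for each condition and depends on its depth and background.

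Pax7-bound regions lay within 100 kb of the gene body of 5 of the 10 genes, where 21.3% of 18991 genes had one. All 5 were binding proteins, and Igf1, Igf2, Igf1r, Igf2r and Igfbp4 had none within that distance. There were 7 regions among the 2455. The nearest to a start was in an intron of Igfbp3, 1.66 kb from it, followed by the region 4.12 kb upstream of Igfbp5 (chr1:72925231-72925928). Others lay 24.0 kb upstream and 38.1 kb downstream of the Igfbp3 start, 43.5 kb upstream of that of Igfbp2, 80.1 kb downstream of that of Igfbp6 and 106.5 kb downstream of that of Igfbp7, beyond the end of the gene. The last 2 and the downstream Igfbp3 region were closer to the starts of other genes, Itgb7, 2610024G14Rik and Adcy1. Igfbp2 and Igfbp5 are neighbours on chromosome 1, and which gene a region acts on, if any, is not known from these data.

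The fold enrichment of accessibility was lower at 12 h without Dox than in +Dox at 7 of the 7 regions. The same held for 95.9% of all Pax7 regions with a peak in both conditions, with a median ratio to +Dox of 0.367. The 12 h peak list was also shorter, at 112586 peaks against 135564 in +Dox. The highest promoter peaks of Igf1, Igf2, Igf1r and Igf2r, which had no Pax7 region within 100 kb, were also lower at 12 h. That of Igfbp6 was higher (14.1 against 7.32), and Igfbp5 had one at 12 h and none in +Dox. Of the regions whose sequences are given above, that upstream of Igfbp5 went from a fold enrichment of 20.7 in +Dox to 3.04 at 12 h, 3.58 at 24 h and 4.53 at 3 days, and was at 4.49 in satellite cells. The intronic Igfbp3 region, without any of the 3 motifs, went from 14.8 to 3.27, 4.69 and 6.20, and was at 6.44 in satellite cells. The upstream Igfbp3 region, by contrast, was at 71.2, 40.1, 64.8 and 66.4, and at 31.4 in satellite cells, so it was nearly as high at 3 days as in +Dox.

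The downstream Igfbp3 region went from 36.9 to 6.07, 8.26 and 17.3 and the downstream Igfbp7 region from 74.6 to 31.1, 27.01 and 54.5. The region upstream of Igfbp2 was at 13.8, 9.93, 21.7 and 9.43, and the downstream Igfbp6 region at 5.60, 4.09, 5.06 and 4.99. In satellite cells the regions at Igfbp2 and downstream of Igfbp3 had no peak, while those of Igfbp6 and Igfbp7 were at 5.47 and 9.76. The region upstream of Igfbp5 was covered by H3K27Ac peaks over 100% of its length in +Dox and 66.2% in -Dox, and by H3K4me1 over 90.4% and 100%. The upstream and downstream Igfbp3 regions also had an H3K27Ac peak in +Dox, over 33.2% and 17.98% of their length, and the other 4 of the 7 regions had none. Over all Pax7 regions, 73.2% had an H3K27Ac peak in +Dox and 37.9% in -Dox. The log2 fold change of Igfbp5 RNA after Dox withdrawal was 1.10 and not called. RNA and accessibility were measured in separate libraries, and a link between this region and Igfbp5 RNA was not tested.

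**Figure D5:**
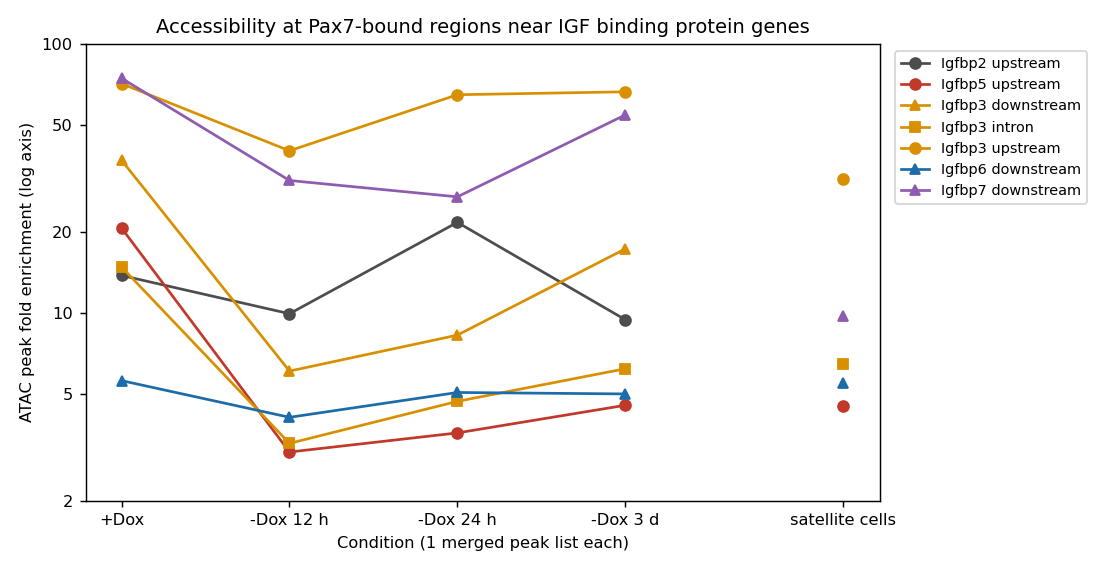
ATAC-seq peak fold enrichment (y axis, log scale) at the 7 Pax7-bound regions within 100 kb of a binding protein gene, in +Dox cells, after 12 h, 24 h and 3 days without Dox, and in satellite cells (x axis), with no point where no peak was listed. All 7 were lower at 12 h than in +Dox, and the region upstream of Igfbp5 went from 20.7 to 3.04.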

How the data were processed

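RNA-seq counts of reads per gene symbol were deposited by the authors for each library, unnormalized, in the form HTSeq writes; the annotation and strand setting were not given in the sources used here. The submitters' processing notes name Trimmomatic 0.32, TopHat2 2.0, HTSeq 0.6, Bowtie2 2.2.6, Picard, MACS2 2.0.10, edgeR and build mm9. ATAC-seq reads were shifted for Tn5, merged and called with MACS2 by the authors, who deposited each peak's fold enrichment as a ratio and its −log10 q. ChIP-seq peaks were called by the authors with Qeseq, and Pax7 regions were kept when found in repeated +Dox samples and in no -Dox sample.

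Libraries (39010958 to 54674619 counts, which sets the counting precision) were grouped by sample labels, and replicate numbers came from the deposited files. Counts were normalized by TMM, filtered with filterByExpr and tested with edgeR 4.0.16 (R 4.3.3) in 1 quasi-likelihood fit of 8 libraries, with Benjamini-Hochberg adjustment over 14836 genes. Peaks were intersected with starts by at least 1 base, in Python 3.11.15 with pysam 0.24.0. The script was tested on simulated data. Alternatives were DESeq2 1.42.0, its size factors, no filter, 2 groups alone, a replicate block, no fold threshold, each library left out, and other windows and lengths. Named genes are the 10, pathway genes called after Dox withdrawal and, per gene, the 2 with the highest r; other pathway genes were named after their values were seen. The members and lists were chosen with earlier results of these data known, and the motifs after the files were seen. C2C12 and myotube files, and histone marks outside +Dox and -Dox, were not used here.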

Additional observations from a re-analysis of the deposited data

How the results depend on the processing

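The number of the 10 genes called after Dox withdrawal was 3, and 2 to 3 when 1 library was left out, with 2 under the replicate block and 4 with the DESeq2 Wald test. It was 5 for satellite cells against +Dox (4 to 6 with 1 library left out) and 6 against -Dox (4 to 8), and the other alternatives left both counts as they were. Over all genes, Dox withdrawal changed 1134, but 741 under the replicate block, 2124 with DESeq2 and 1950 with the 2 groups fitted alone; the cause was not tested. Deviations of same-numbered libraries correlated between -0.119 and 0.0968. Libraries with different numbers were not compared, so these values cannot decide whether replicate numbers pair the libraries. Under the block the 2 calls after Dox withdrawal were among the 3, Igf1 being lost. Of the members' fold changes, 5 turned direction, all with 1 library left out and none of them called. Igfbp2 ran from -2.28 (without -Dox replicate 2) to 1.99 after Dox withdrawal, was -0.49 and -2.71 in satellite cells against +Dox without +Dox replicate 3 and satellite cell replicate 1 (up to 0.93 otherwise), and ran from -3.78 to 2.32 (without -Dox replicate 2) against -Dox. Igf2r was -0.21 against -Dox without satellite cell replicate 1, and up to 0.46 otherwise. Where -Dox was left with 1 library, that library was assumed to vary like the other groups. Reads placed uniquely were fewer in satellite cells, Igfbp2 had at most 22 counts, and the peak lists have no replicates.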
